A study of Mus musculus with 3 samples.

Results

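Each antibody is built from a heavy chain and a light chain, and its constant region is encoded by one of a small set of genes. The genes described here are 10 of the 32285 in the files, chosen by symbol: the heavy-chain constant genes Ighm, Ighd, Igha, Ighg1, Ighg2b, Ighg2c and Ighg3, which give IgM, IgD, IgA and the IgG subclasses, the light-chain constant genes Igkc (kappa) and Iglc1 (lambda), and Jchain, which encodes the J chain that joins IgM and IgA into polymers. Ighe, Iglc2 and Iglc3 are given beside them. A naive B cell makes Ighm and Ighd from one long transcript. After activation, a B cell can undergo class switch recombination, which deletes Ighm and Ighd from the used chromosome and brings a downstream gene behind the rearranged variable region. Plasma cells, the end stage of the B lineage, secrete antibody and carry its transcripts in very large amounts.

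The genes were followed in CD45+ cells of the infrarenal aorta of wild-type mice, in 3 single-cell libraries of 1 group each. Aortas of AAA_14 were treated with elastase, which degrades elastic fibres of the vessel wall, and those of Sham with phosphate-buffered saline (PBS). The title of the library AAA_7 names an aneurysm and its treatment label names PBS, so the treatment of AAA_7 is in doubt, and the unit of 7 and 14 is not given. Every group went through the same enzyme digestion (collagenase, hyaluronidase, DNase) and was enriched magnetically for living CD45+ cells. The labels give 20 aneurysm and 50 control aortas, pooled within a group, with no number of its own for AAA_7, and no strain, sex or age. With 1 library per group no difference has a replicate check: every difference is between libraries, and intervals (95%) cover counting error only.

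Of 17389 barcodes, 9750 with at least 200 genes and at most 10% mitochondrial UMIs (unique molecular identifiers, the transcripts counted) were kept, which were 5286 of AAA_14, 3229 of AAA_7 and 1235 of Sham. They held 51007459, 13035383 and 5986174 UMIs, with medians of 6967.5, 2581 and 3659 UMIs per cell in AAA_14, AAA_7 and Sham. The mitochondrial limit removed 4766, 263 and 2534 barcodes, so it bears unequally on the libraries. Kept libraries shared 3 barcodes (AAA_14 and Sham), 1 (AAA_7 and Sham) and 8 (AAA_14 and AAA_7). Cells were put in classes by how many of 8 fixed marker genes per class had a UMI, with none of the 10 genes among the markers. This gave 1278, 442 and 415 B cells, with medians of 7, 5 and 5 of the 8 B cell markers, and 158, 19 and 4 plasma cells, with a median of 7 of the 8 plasma cell markers in each library.

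The heavy-chain genes lie together on chromosome 12 of GRCm38 (mm10), all on the minus strand, in the transcribed order Ighm (113418558 to 113422730), Ighd (113406604 to 113416324), Ighg3 (113356224 to 113361232), Ighg1 (113325240 to 113330523), Ighg2b (113302965 to 113307933), Ighg2c (113285325 to 113288932) and Igha (113254830 to 113260236). Igkc is on the plus strand of chromosome 6 (70726435 to 70726966), Iglc1 on the minus strand of chromosome 16 (19061618 to 19062071) and Jchain on the minus strand of chromosome 5 (88519809 to 88527891). Calling an isotype rests on telling the IgG genes apart, and the last 60 coding bases, stop codon included, are shown because the chemistry counts transcripts from their 3' end. They are exonic and coding, from a GENCODE vM21 transcript of each gene, read 5' to 3' on the gene's strand. For the IgG genes this is the transcript of the secreted form, without the exons of the membrane form. The ends of transcripts with membrane exons were not compared. Capitals mark the positions at which the 4 IgG genes are not all alike, 26 of 60.
Ighg1 (chr12:113328976-113329035): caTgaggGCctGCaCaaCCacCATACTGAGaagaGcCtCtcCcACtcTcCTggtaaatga
Ighg2b (chr12:113306389-113306448): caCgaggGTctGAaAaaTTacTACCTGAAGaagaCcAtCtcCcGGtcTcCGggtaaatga
Ighg2c (chr12:113287389-113287448): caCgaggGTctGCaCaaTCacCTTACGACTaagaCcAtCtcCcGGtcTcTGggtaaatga
Ighg3 (chr12:113359665-113359724): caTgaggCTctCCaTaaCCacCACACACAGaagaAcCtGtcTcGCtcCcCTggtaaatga

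Over the whole coding sequence of the secreted form Ighg2b and Ighg2c were 86.0% identical, and the other pairs of IgG genes between 74.4% and 77.0%. The lambda genes were less well separated: the same 60 bases were identical in Iglc2 and Iglc3, which were 96.2% identical over their coding sequence, and Iglc1 shared 73.7% with Iglc2 and 74.8% with Iglc3. Capitals mark the 13 of 60 positions at which the lambda genes are not all alike. The split of reads between Iglc2 and Iglc3 is therefore uncertain, and Iglc1 can be read apart from both.
Iglc1 (chr16:19061752-19061811): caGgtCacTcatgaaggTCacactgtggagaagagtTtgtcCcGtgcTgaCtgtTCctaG
Iglc2 (chr16:19198536-19198595): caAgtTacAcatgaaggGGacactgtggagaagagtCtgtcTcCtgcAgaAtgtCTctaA
Iglc3 (chr16:19065365-19065424): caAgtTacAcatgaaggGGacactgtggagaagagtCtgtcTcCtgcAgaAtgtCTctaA

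The 10 genes together made up 5.57% of all kept UMIs of AAA_14, 1.26% of AAA_7 and 0.938% of Sham. Plasma cells held 78.8%, 86.0% and 63.7% of these UMIs in AAA_14, AAA_7 and Sham, although they were few. Within a plasma cell the 10 genes took a median of 55.2% of all UMIs in AAA_14 (4.12 to 72.5%), 52.5% in AAA_7 (13.8 to 70.5%) and 64.4% in Sham (34.7 to 72.6%), and these ranges overlap. Ighd lay outside plasma cells in every library, with 79.1%, 82.8% and 68.7% of its UMIs in B cells and 0.328%, 0% and 0.138% in plasma cells of AAA_14, AAA_7 and Sham. Other members did so in some libraries only. In AAA_7 73.5% of the Ighg1 UMIs were in B cells and 93.4% of the Ighg3 UMIs in unclassified cells. In Sham 68.4% of the Iglc1 UMIs were in B cells, as was the 1 Ighg3 UMI of that library. Cells left without a class held a part as well, 27.9% of the Igha and 17.5% of the Igkc UMIs in AAA_14. Among them were 37 cells in AAA_14, 1 in AAA_7 and 2 in Sham that reached the 5 markers asked of plasma cells but had as many B cell markers (14, 1 and 1 cells) or came too close in the markers of another class (23, 0 and 1).

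**Figure D1:**
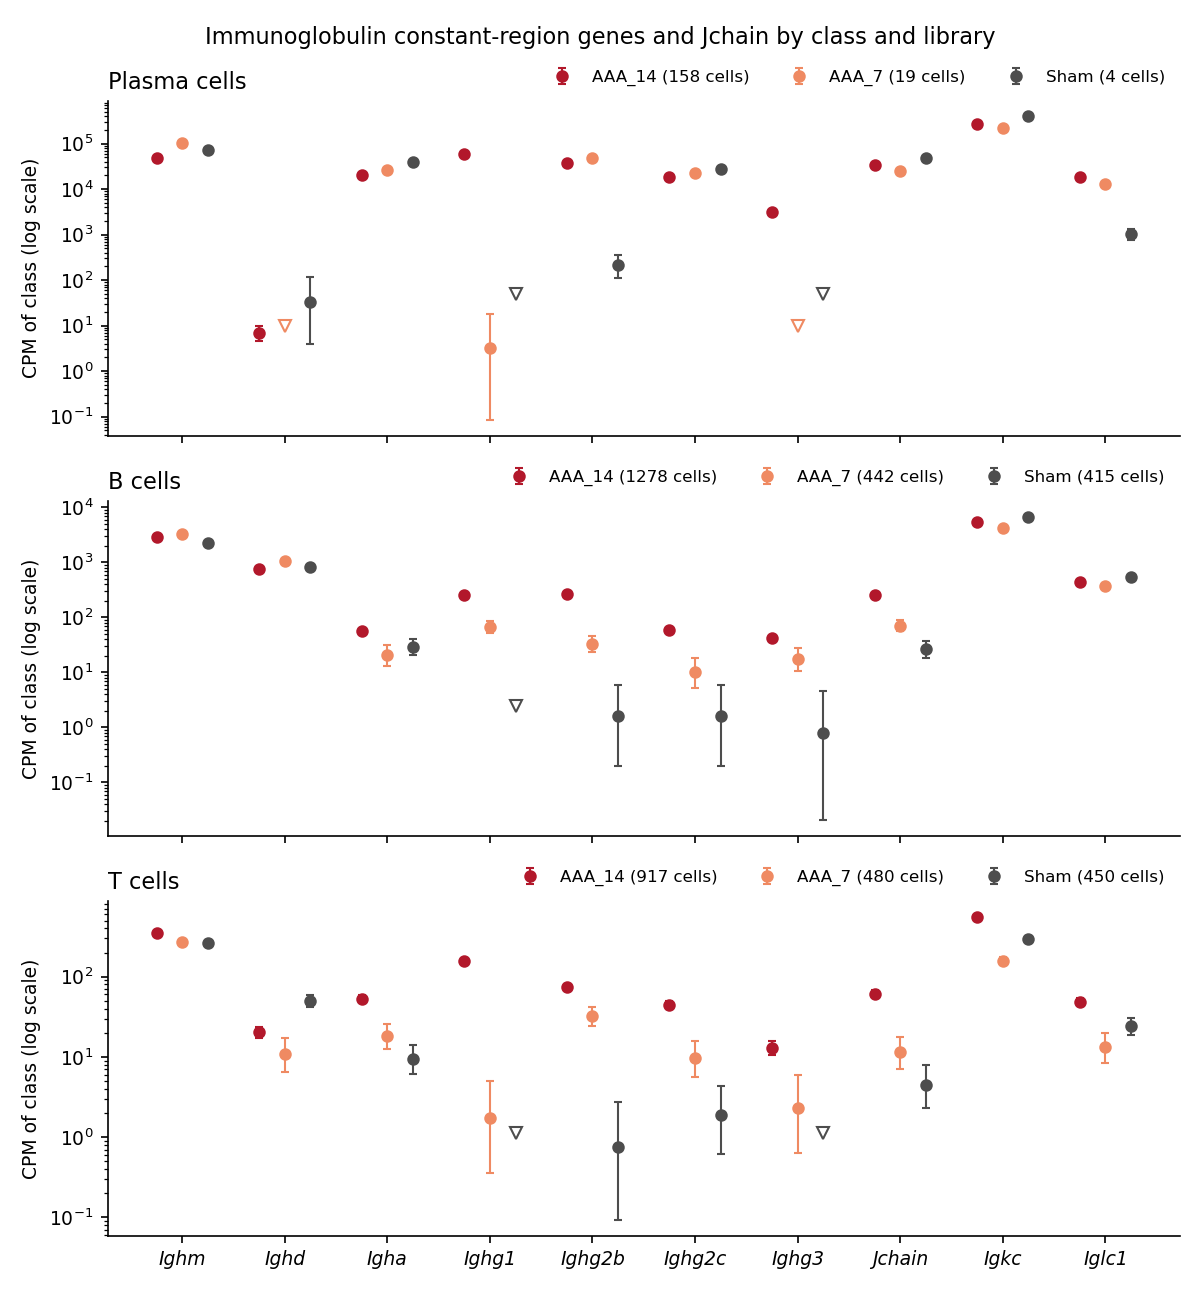
Level of each of the 10 genes, in CPM (counts per 1000000 UMIs of the class in that library) on a log axis, in plasma cells, B cells and T cells of AAA_14, AAA_7 and Sham. Points are the summed level of 1 library with a 95% exact Poisson interval, and open triangles mark the floor of 3 counts where a gene had 0 UMIs, as Ighg1 had in every class of Sham.

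Plasma cells were a larger share of the B lineage in AAA_14 than in the other libraries at the limit used, at 11.0% of B and plasma cells (158 of 1436, 9.43 to 12.7%), against 4.12% (19 of 461, 2.50 to 6.36%) in AAA_7 and 0.955% (4 of 419, 0.261 to 2.43%) in Sham. The value for AAA_14 depends on the mitochondrial limit, because many of its B cells lie close to it: the median mitochondrial share was 8.35%, 2.03% and 8.97% in B cells and 3.57%, 0.925% and 5.43% in plasma cells of AAA_14, AAA_7 and Sham. Without a limit the shares were 4.44% (165 of 3713) in AAA_14, 4.09% in AAA_7 and 0.349% (6 of 1718) in Sham, so AAA_14 and AAA_7 were then close to each other and AAA_14 was still above Sham. In a dissociated sample, a difference in the share of cells that were freed and caught cannot be told apart from one in the tissue.

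Every plasma cell could be given 1 isotype, named by the heavy-chain gene with the most UMIs. That gene held a median of 99.8%, 99.98% and 99.9% of the heavy-chain UMIs of a cell in AAA_14, AAA_7 and Sham, and at least 95% in 151 of 158, 19 of 19 and 4 of 4 cells. A UMI marks 1 captured transcript whatever its length, so the genes of a cell were set against each other without division by length. The most mixed of the 7 other cells, in AAA_14, had 6468 UMIs of Ighg2c and 3082 of Ighg1, with 57782 UMIs in all. A pair of IgG3 cells of AAA_14 had Ighm as their second gene, with 231 UMIs beside 1977 of Ighg3 in one and 128 beside 1183 in the other.

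IgG was the leading isotype of AAA_14 plasma cells. Of 158 cells, 44 were IgG1, 39 IgG2b, 15 IgG2c, 4 IgG3, 17 IgA and 39 IgM, so 102 (64.6%, 56.6 to 72.0%) were IgG. In AAA_7, 5 of 19 cells were IgG2b, 2 IgG2c, 3 IgA and 9 IgM, and 7 (36.8%, 16.3 to 61.6%) were IgG. The 4 plasma cells of Sham were 1 IgG2c, 1 IgA and 2 IgM. IgG1, the most frequent subclass in AAA_14, led no plasma cell of AAA_7 or Sham, where, by the floor of 3 counts, 0 of 19 allows up to 15.8% and 0 of 4 up to 75% (17.6% and 60.2% by the exact interval). The intervals of the IgG share in AAA_14 and AAA_7 overlap, and with 4 cells Sham allows no comparison. Over all other settings tried the IgG share stayed between 63.0 and 66.4% in AAA_14 and between 35.3 and 41.7% in AAA_7.

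**Figure D2:**
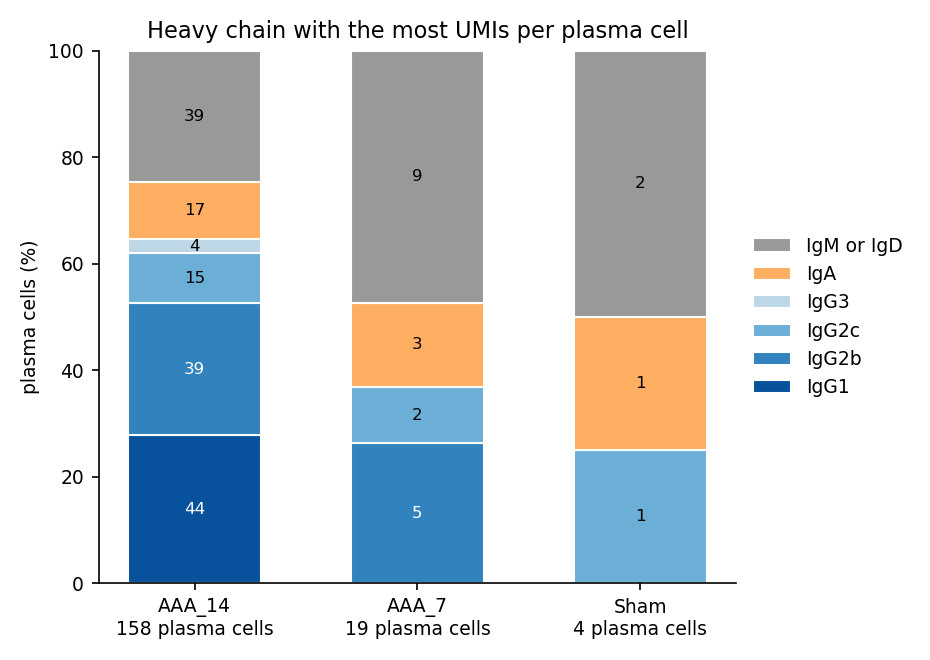
Plasma cells of AAA_14 (158 cells), AAA_7 (19) and Sham (4) by isotype, as stacked percent of the plasma cells of a library with the number of cells written in each block. IgG1, IgG2b, IgG2c and IgG3 together make up 64.6% of the cells of AAA_14 and 36.8% of those of AAA_7.

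The summed levels in plasma cells followed the isotype counts. Ighg1 had 262432 UMIs (60572 CPM) in plasma cells of AAA_14, 1 UMI in those of AAA_7 and 0 in Sham. Ighm summed to 213500 UMIs (49278 CPM) in plasma cells of AAA_14, 30984 (101619 CPM) in AAA_7 and 4391 (71822 CPM) in Sham. Ighm, the unswitched gene, thus took its smallest share of plasma cell UMIs in AAA_14, the library with Ighg1 plasma cells. Igha summed to 88038 UMIs (20320 CPM), 8141 (26700.2 CPM) and 2456 (40172 CPM) in AAA_14, AAA_7 and Sham, and in Sham all of them came from 1 cell. Ighg3 had 13500 UMIs in plasma cells of AAA_14 and 0 in those of AAA_7 and Sham. In AAA_7 a single unclassified cell held 449 of the 487 Ighg3 UMIs of the library. Ighe, the gene of IgE, had 48 UMIs in plasma cells of AAA_14, 22 of them in 1 cell, and 0 in AAA_7 and Sham, and led no cell.

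Kappa was the main light chain. Igkc had 1194632 UMIs (275736 CPM) in plasma cells of AAA_14, 68871 (225878 CPM) in AAA_7 and 24181 (395522 CPM) in Sham, which made it the gene with the most UMIs among the 10 in each library. Lambda genes outnumbered Igkc in 11 of 158 plasma cells (6.96%, 3.53 to 12.1%) of AAA_14, 2 of 19 of AAA_7 and 0 of 4 of Sham. Iglc1 led 10 of the 11 lambda cells of AAA_14 and Iglc2 the other. By isotype, 3 of the 11 were IgM, 3 IgA, 4 IgG2b and 1 IgG2c.

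Among B cells, lambda cells were less frequent in AAA_14, at 122 of 1274 with a light-chain call (9.58%, 8.02 to 11.3%), against 80 of 436 (18.3%, 14.8 to 22.3%) in AAA_7 and 62 of 413 (15.0%, 11.7 to 18.8%) in Sham. A call needed 2 UMIs, and 7, 22 and 15 cells of AAA_14, AAA_7 and Sham with as many kappa as lambda UMIs stayed in the denominator. Free Igkc transcript, described further on, was highest in AAA_14, and its part in the lower lambda share was not tested. Most lambda B cells were led by Iglc2 (78, 47 and 37 cells in AAA_14, AAA_7 and Sham), then by Iglc1 (35, 21 and 15) and Iglc3 (9, 12 and 10).

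Jchain was found in every plasma cell, and the cell with the fewest had 25 UMIs in AAA_14, 34 UMIs in AAA_7 and 451 UMIs in Sham. In AAA_14 its median per cell was 44486 CPM in IgA and 44420 CPM in IgM cells, which use the J chain for polymers, against 27396 in IgG1, 22060 in IgG2b, 21549 in IgG2c and 27966 CPM in IgG3 cells. The ranges of single cells overlap: IgM cells spanned 369 to 81134 CPM and IgG1 cells 8182 to 58184 CPM. In AAA_7 too the IgA and IgM medians were above those of IgG, with 33634 CPM in IgA and 31345 CPM in IgM cells, against 10954 in IgG2b and 12077 CPM in IgG2c cells. All AAA_7 IgA cells (33494 to 53456 CPM) lay above all IgG cells of that library (7882 to 13798 CPM), with 3 and 7 cells. In Sham the IgA cell had 71347 CPM, the IgM cells 35481 and 44604 CPM and the IgG2c cell 42104 CPM. The IgM cell with the lowest Jchain in AAA_14 had 25 Jchain UMIs among 67671, with 1016 of Ighm and 36 of Ighg2c.

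**Figure D3:**
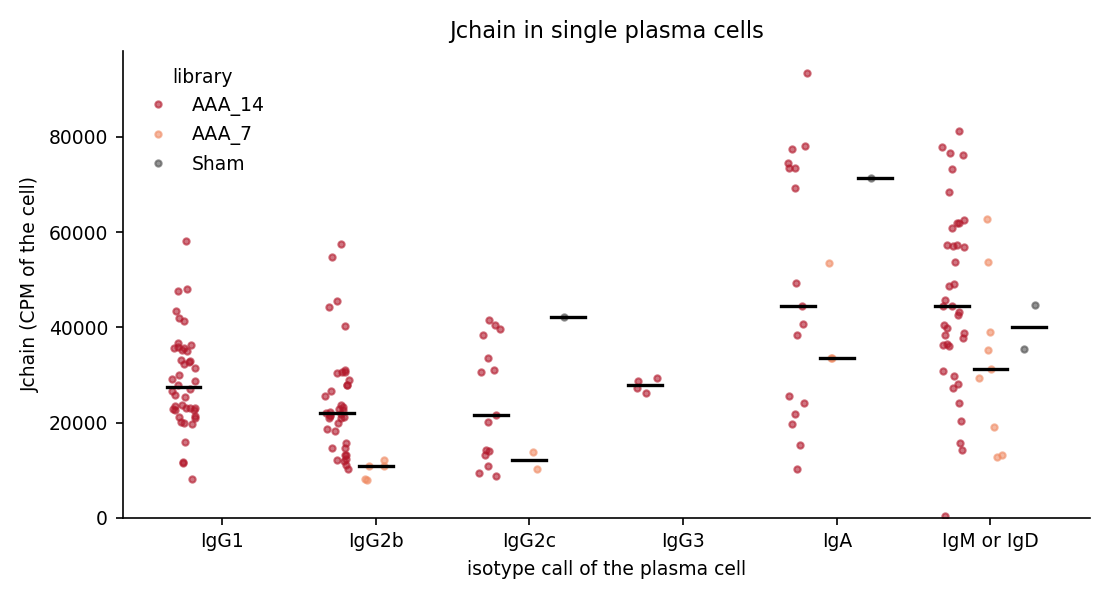
Jchain level of each plasma cell in CPM, by library (AAA_14, AAA_7, Sham) and isotype. Points are cells and bars medians: in AAA_14 the IgM and IgA medians are 44420 and 44486 CPM and those of the IgG subclasses lie between 21549 and 27966 CPM, with overlapping ranges.

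Plasma cells of different isotype also differed in genes outside the immunoglobulin loci. IgG cells were set against IgM and IgA cells of AAA_14 (102 and 56 cells), with each gene scaled to the UMIs outside immunoglobulin genes and Jchain (non-Ig CPM). A 2-fold difference in either direction was passed by 127 of 2550 genes (4.98%). The genes named next were chosen after their values were seen, all cells come from 1 library, and cells of 1 clone are not independent.

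Slpi, which encodes a secreted inhibitor of leukocyte proteases, was higher in IgG cells, at 62522 non-Ig CPM in IgG against 3368 non-Ig CPM in IgM and IgA cells (log2 ratio 4.21, 4.16 to 4.27). By subclass it was 85001 in IgG1, 55812 in IgG2b, 33053 in IgG2c, 2873 in IgG3, 565 in IgA and 4916 non-Ig CPM in IgM cells. The 4 IgG3 cells lay between 0 and 9179 non-Ig CPM. The spread within an isotype was wide, from 94.4 to 229811 non-Ig CPM among 44 IgG1 cells and from 0 to 64325 among 39 IgM cells. In AAA_7 the log2 ratio of 7 IgG to 12 IgM and IgA cells was 2.61, with 181017 non-Ig CPM in the 2 IgG2c cells, 12872 in IgG2b, 22549 in IgA and 9000 in IgM cells, so IgG2b was below IgA there. In Sham the IgG2c cell had 1162 Slpi UMIs, the IgA cell 1 and the IgM cells 3 together.

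Lower in IgG cells were Tnfrsf17, the gene of BCMA, a receptor for survival signals of plasma cells, and Txndc5, which encodes a protein disulfide isomerase of the endoplasmic reticulum. Both are among the markers that defined plasma cells. Tnfrsf17 was 53.2 non-Ig CPM in IgG against 343 in IgM and IgA cells of AAA_14 (log2 ratio -2.68, -3.09 to -2.30), and Txndc5 was 772 against 3672 non-Ig CPM (-2.25, -2.36 to -2.14). AAA_7 gave -2.21 for Tnfrsf17, on 2 and 22 UMIs, and -2.69 for Txndc5. In AAA_14 Tnfrsf17 was at 67.5, 21.7 and 31.1 non-Ig CPM in IgG1, IgG2b and IgG2c, 466 in IgA and 275 in IgM cells. IgG3 cells were at 239 non-Ig CPM (127 to 409), on 13 UMIs in 2 of 4 cells, and so were not set apart from IgM. By isotype, Txndc5 was at 788, 481 and 781 non-Ig CPM in IgG1, IgG2b and IgG2c, 3409 in IgA and 3817 in IgM cells. The 4 IgG3 cells were at 185, 2078, 2446 and 4888 non-Ig CPM, too wide a spread to place them. None of the other plasma cell markers was lower in IgG cells than in both IgM and IgA cells of AAA_14. In IgG, IgM and IgA cells Fkbp11 was at 1104, 526 and 522 non-Ig CPM, Mzb1 at 7220, 4936 and 5544 and Xbp1 at 3288, 2514 and 3042. Derl3 was at 523, 668 and 512 and Sdc1 at 312, 368 and 307, both lower in IgG than in IgM cells but not than in IgA cells. Prdm1 was at 148, 140 and 134. In AAA_7 Fkbp11 was at 493, 1043 and 430 and Mzb1 at 5219, 9387 and 3344.

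Ccr10, the receptor for the chemokines CCL27 and CCL28 and known from IgA plasma cells of mucosal tissue, was at 462 non-Ig CPM in IgA cells of AAA_14, with a UMI in 16 of 17. It was at 31.2 non-Ig CPM in IgM cells, where 4 of 39 had a UMI, and between 0 and 44.4 non-Ig CPM in the IgG subclasses. In AAA_7 1 of 3 IgA cells had a Ccr10 UMI, a single one (47.8 non-Ig CPM of IgA cells, 1.21 to 266), and the IgM and IgG cells had 0. Of the other genes past the 2-fold mark, Pld4 (2.15), Epcam (2.08), Vpreb3 (1.85), Napsa (1.52) and Grn (1.48) were higher in IgG cells by these log2 ratios, and Serpina3g (-3.30), Cd83 (-3.03) and Ctla4 (-2.26) were lower. Ly6k (-3.56) had 58.5% of its UMIs in 1 cell.

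**Figure D4:**
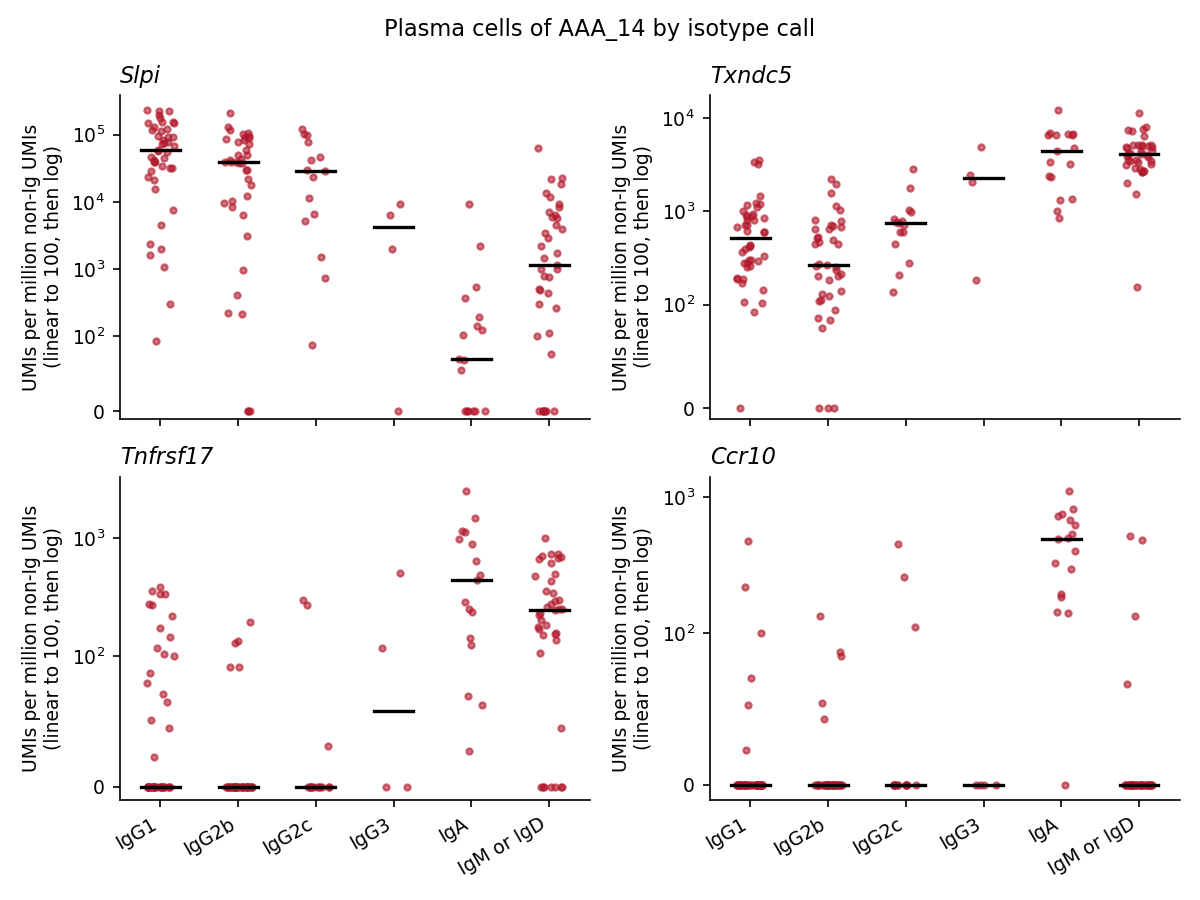
Slpi, Txndc5, Tnfrsf17 and Ccr10 in each plasma cell of AAA_14 by isotype, in non-Ig CPM, on an axis that is linear up to 100 and logarithmic above. Points are cells and bars medians: IgA and IgM cells sit low for Slpi and high for Txndc5 and Tnfrsf17, and Ccr10 is seen in 16 of 17 IgA cells.

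The variable genes showed many different rearrangements rather than 1. An Ighv gene reached 10 UMIs in 92 of 158 plasma cells of AAA_14, 4 of 19 of AAA_7 and 3 of 4 of Sham. In AAA_14 these cells used 40 of the 185 Ighv genes in the files, and 18 of the 40 were found in 1 cell each. Ighv8-8 was the most frequent, in 10 cells that were all IgG and spread over 3 isotypes, followed by Ighv14-4 in 7 cells that were all IgG. Of all plasma cells of AAA_14, 102 of 158 (64.6%) were IgG. The IgG share of the 92 cells is not given here, and isotypes need not reach 10 UMIs equally often. That these cells were all IgG is therefore not read as a trait of the 2 genes. The same Ighv gene does not show a shared clone, since junction sequences were not used here.

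B cells were mostly unswitched in all libraries. A UMI of both Ighm and Ighd was found in 86.5% of B cells of AAA_14, 84.8% of AAA_7 and 81.4% of Sham, against 9.49%, 2.29% and 11.1% of T cells. Ighm stood at 2855 CPM (27671 UMIs) in AAA_14, 3224 CPM (3470) in AAA_7 and 2217 CPM (2747) in Sham, and Ighd at 747 CPM (7243 UMIs), 1056 CPM (1137) and 806 CPM (999). Median depth of B cells was 4589, 1856 and 2392 UMIs in AAA_14, AAA_7 and Sham.

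Among the 10 genes, the IgG genes and Jchain differed most between B cells of the libraries with AAA_14 or AAA_7 over Sham. Ighg1 had 2422 UMIs (250 CPM) in B cells of AAA_14, 72 (66.9 CPM) in AAA_7 and 0 in Sham. Set against a floor of 3 counts in B cells of Sham, this is 103-fold in AAA_14 and 27.6-fold in AAA_7. The exact lower limits of the log2 ratios over Sham were 6.39 for AAA_14 and 4.45 for AAA_7. Of the 72 Ighg1 UMIs of AAA_7, 36 were in 1 cell. Ighg2b had 2608 UMIs (269 CPM), 36 (33.5 CPM) and 2 (1.61 CPM) in AAA_14, AAA_7 and Sham. These counts were high in AAA_14, low in AAA_7 and at or near 0 in Sham. Ighg2c had 568 UMIs (58.6 CPM), 11 (10.2 CPM) and 2 (1.61 CPM), and Ighg3 404 UMIs (41.7 CPM), 19 (17.7 CPM) and 1 (0.807 CPM). For Jchain, 2447 UMIs (252 CPM) were counted in B cells of AAA_14, 76 (70.6 CPM) in those of AAA_7 and 33 (26.6 CPM) in those of Sham.

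On the log2 scale, with 0.5 counts added, AAA_14 B cells were above Sham B cells by 7.06 (5.53 to 10.43) for Ighg2b, 4.86 (3.32 to 8.23) for Ighg2c, 5.11 (3.20 to 11.00) for Ighg3, 3.22 (2.75 to 3.79) for Jchain and 0.95 (0.48 to 1.50) for Igha. The genes of unswitched B cells and the light chains differed less: Ighm by 0.36 (0.31 to 0.42), Ighd by -0.11 (-0.20 to -0.01), Igkc by -0.34 (-0.38 to -0.31) and Iglc1 by -0.32 (-0.44 to -0.20). The median of all genes was 0.36 higher in AAA_14, so relative to it Ighm was level. The direction of Ighd and Igkc changed with the settings, with ranges of -0.44 to 0.17 and -0.67 to 0.05. Iglc2 and Iglc3 were lower in AAA_14 than in Sham by log2 ratios of -1.12 and -0.75.

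Of the 10 genes, 5 were at least 2-fold higher and 0 lower in B cells of AAA_14 than of Sham, where 26.1% of 11830 genes were at least 2-fold higher and 6.46% lower (32.5% in either direction). The median of the 10 log2 ratios was 2.09, against 0.36 over all genes. In AAA_7 over Sham 5 were higher and 0 lower, beside 17.7% and 5.58% of 9056 genes (23.3% in either direction), with a median of 0.97 against 0.27. The largest there were Ighg2b (4.07), Ighg3 (3.90), Ighg2c (2.41) and Jchain (1.39), beside Ighg1 with 0 counts in Sham. Ighg1 thus reaches the minimum of 10 UMIs only through the library set against Sham. Its ratio is then always past 2-fold. Its place among the 5 in both comparisons with Sham, and its part in the 2 medians, are therefore not a result about this gene. With the T cell level subtracted, Ighg2b fell to 0.54 in AAA_7 over Sham, no longer at 2-fold, and Ighg2c to 1.23. Of the 442 B cells of AAA_7, 0 were called IgG2b. In AAA_14 over AAA_7 6 were higher and 0 lower, beside 12% and 6.41% of 11774 genes (18.4% in either direction), with a median of 1.32 against 0.04. The 6 were Ighg2b (2.99), Ighg2c (2.46), Ighg1 (1.89), Jchain (1.83), Igha (1.44) and Ighg3 (1.20). With the T cell level subtracted, Ighg1 (0.54), Igha (0.51) and Ighg3 (0.86) were no longer at 2-fold, and 3 of the 6 were left. The first and the second of these comparisons share the Sham library.

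These levels stand on a background of free transcript, which was highest in AAA_14. An Ighg1 UMI was found in 64.3% of B cells of AAA_14 but also in 67.3% of T cells, 69.4% of phagocytes and 59.3% of neutrophils, classes that do not transcribe the gene. Median depths there were 4589 UMIs in B cells, 6275 in T cells, 10099 in phagocytes and 3881 in neutrophils. In AAA_7 the shares were 2.04% of B cells and 0.625% of T cells, and in Sham 0% of both. So the share of B cells with an Ighg1 UMI was at the background in AAA_14, and only the level set B cells apart, at 250 CPM in B cells against 155 CPM in T cells. That level was uneven among B cells. The 86 called switched with at least 5 UMIs, described further on, held 1124 of the 2422 Ighg1 UMIs (696 CPM). The 1134 called IgM or IgD were at 161 CPM, near the T cells. These calls use the same heavy-chain UMIs.

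The other genes were read against the same measure. In AAA_14 Ighg2b was 269 CPM in B cells and 75.1 CPM in T cells, Ighg3 41.7 and 13.0 CPM, Jchain 252 and 61.7 CPM, and Ighg2c 58.6 and 44.1 CPM. Igha was 56.8 CPM in B cells and 53.2 CPM in T cells of AAA_14, 20.4 and 18.3 CPM in AAA_7 and 29.0 and 9.42 CPM in Sham. Igha in B cells of AAA_14 and AAA_7 was thus at the level of free transcript. With the T cell level subtracted, Igha turned from 0.95 to -2.45 on the log2 scale in AAA_14 over Sham. In T cells Igkc stood at 548, 157 and 296 CPM and Ighm at 347, 274 and 267 CPM in AAA_14, AAA_7 and Sham.

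The makeup of the free transcript was set beside that of plasma cells. In AAA_14 Ighg1 made 21.9% of the heavy-chain UMIs of T cells, 24.9% of neutrophils and 19.3% of phagocytes, against 32.1% of plasma cells. Ighm was the largest part of the free transcript there, at 49.1%, 39.0% and 57.7% in those classes, against 26.1% of plasma cells. In AAA_7 Ighg1 made 0.493%, 0.557% and 0.309% in those classes and 0.00165% in plasma cells. So Ighg1 was a large part of the free heavy-chain transcript in AAA_14 and a small one in AAA_7. In AAA_7 Ighg2b made 9.20%, 16.7% and 7.54% in T cells, neutrophils and phagocytes, against 24.0% in plasma cells, Igha 5.25%, 10.0% and 3.90%, against 13.5%, and Ighg2c 2.79%, 7.80% and 3.59%, against 11.3%. In Sham Igha was at 2.86% in T cells and 28.7% in the 4 plasma cells, and Ighg2c at 0.573% and 19.8%. The free heavy-chain UMIs of Sham T cells were mostly Ighm (81.1%) and Ighd (15.2%).

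Plasmacytoid dendritic cells, which make type I interferon and share transcription factors with the B lineage, stood above this background for Ighm. They had 1291, 1415 and 913 CPM of Ighm in AAA_14, AAA_7 and Sham, with a UMI in each of the 56, 24 and 17 cells, against 347, 274 and 267 CPM in T cells. Ighm made 83.1%, 97.3% and 97.1% of their heavy-chain UMIs, so the switched genes did not rise with it. Of Iglc2 and Iglc3 they had mainly Iglc3, at 710, 1153 and 1251 CPM, against 137, 155 and 173 CPM of Iglc2. In B cells Iglc2 was above Iglc3 in each library. T cells had 10.5, 4.01 and 27.1 CPM of Iglc3. Reads of Iglc2 and Iglc3 may be split wrongly where the genes are identical.

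Calling switched B cells was limited by this background. With a minimum of 2 UMIs for the leading heavy-chain gene, 95 of 1278 B cells of AAA_14 (7.43%, 6.06 to 9.01%), 3 of 442 of AAA_7 (0.679%, 0.140 to 1.97%) and 0 of 415 of Sham were switched, where 0 of 415 allows up to 0.723% by the floor of 3 counts and 0.885% by the exact interval. The 95 were 31 IgG1, 46 IgG2b, 11 IgG2c, 7 IgG3 and 0 IgA. The same rule called 198 of 917 T cells of AAA_14 (21.6%), 5 of 480 of AAA_7 and 1 of 450 of Sham, more than it called among B cells.

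A higher minimum parted the classes. With 5 UMIs it called 86 B cells and 11 T cells in AAA_14, 3 B cells and 0 T cells in AAA_7, and 0 of both in Sham. With 20 UMIs it called 53 B cells (4.15%, 3.12 to 5.39%) and 0 of 917 T cells in AAA_14, which allows up to 0.327% of T cells by the floor of 3 counts and 0.401% by the exact interval, 2 B cells and 0 T cells in AAA_7, and 0 of both in Sham. The share at 2 UMIs in AAA_14 fell to 3.63% with a mitochondrial limit of 20% (115 of 3171), was 3.80% without a limit and 20.8% (11 of 53) with 5%, and was 3.63% in cells thinned to 1000 UMIs, where 11 of the 1278 cells had fewer UMIs and were left out.

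**Figure D5:**
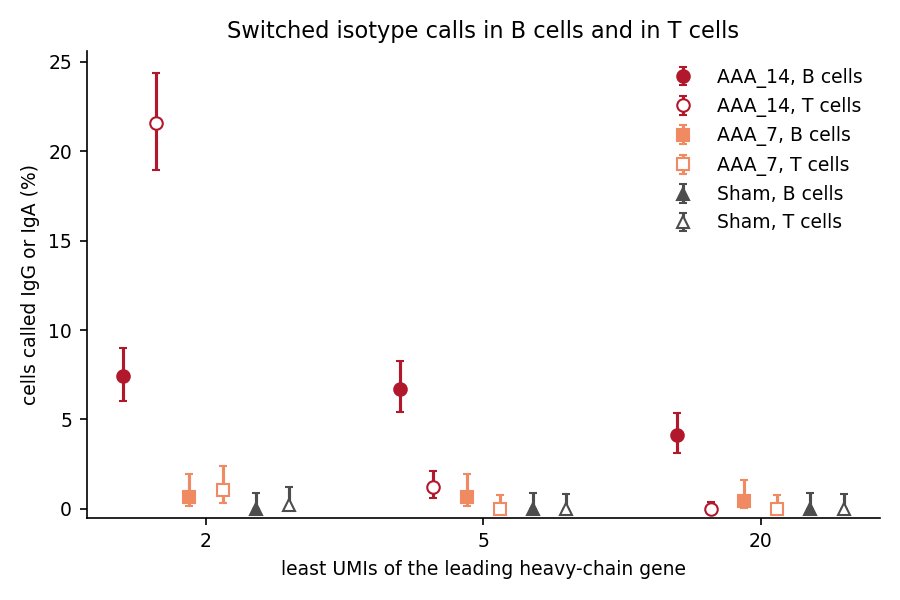
Cells called switched, as percent of B cells and of T cells of AAA_14, AAA_7 and Sham, with a minimum of 2, 5 or 20 UMIs for the leading heavy-chain gene and exact 95% Clopper-Pearson intervals. At 2 UMIs T cells of AAA_14 (21.6%) exceed B cells (7.43%), and at 20 UMIs 53 of 1278 B cells and 0 of 917 T cells of AAA_14 are called.

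The 86 switched B cells of AAA_14 with at least 5 UMIs carried transcripts known from germinal centres, the sites in which B cells mutate and switch. Mef2b, a transcription factor of germinal centre B cells, was at 235 CPM in switched against 44.5 CPM in the 1134 IgM or IgD cells called with the same minimum, Rgs13 at 191 against 30.2 CPM and S1pr2, which holds cells in the germinal centre, at 130 against 20.5 CPM. Genes of resting and recirculating B cells were lower in switched cells: Ccr7 at 31.6 against 281 CPM and Fcer2a (CD23) at 135 against 373 CPM. Jchain was at 624 against 165 CPM. The switched cells were deeper, with a median of 15756 against 4442 UMIs.

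In cells thinned to 1000 UMIs, which left out 2 of the IgM or IgD cells, a Mef2b UMI was found in 15.1% of switched (8.30 to 24.5%) against 1.50% of IgM or IgD cells (0.877 to 2.39%), where the unthinned shares were 81.4% and 7.94%. Ccr7 was found in 3.49% of switched against 25.1% of IgM or IgD cells after thinning. So the differences were present when these genes were counted at equal depth. The cells themselves were called switched or unswitched at full depth, so thinning does not remove depth from the choice of cells. Whether the deeper cells hold doublets was not tested in this comparison. Such cells were few in AAA_7 (3 cells) and none were called in Sham.

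Over all B cells, 7 of 12 genes of class switching and somatic mutation were at least 2-fold higher in AAA_14 than in Sham and 1 was lower, with a median log2 ratio of 1.22, against 0.36 over all genes and 26.1% of genes higher. Among those that were higher were Polh (2.82), the polymerase of somatic mutation at A and T, Msh6 (2.09) and Exo1 (2.08) of mismatch repair, Apex1 (1.39) and Ung (1.20) of base excision repair, and Batf (1.24), a transcription factor needed for switching. Several of these repair genes are also known from dividing cells. Irf4 was lower (-1.06), and Bcl6, the factor that keeps germinal centre B cells in that state, was at -0.49 (-0.78 to -0.17). In AAA_7 over Sham 3 of 11 were higher and 0 lower, beside 17.7% of all genes higher, and in AAA_14 over AAA_7 2 of 12 were higher and 0 lower, beside 12%.

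The counts of the other lists are given beside the 26.1% of all genes that were higher in AAA_14 than in Sham. Of the B cell receptor genes 4 of 12 were higher and 0 lower in AAA_14 than in Sham (median 0.44), among them Plcg2 (1.48), Blk (1.39) and Cr2 (1.13), while Cd79a, the receptor's own signalling chain, was at -0.00 (-0.07 to 0.06). Of the genes of secretion and plasma cell differentiation 5 of 14 were higher and 1, Irf4, was lower (median 0.47), and Prdm1, which drives plasma cell formation, had 40, 10 and 8 UMIs in B cells of AAA_14, AAA_7 and Sham. Of the plasma cell survival genes 5 of 7 had enough UMIs, and 3 were higher and 0 lower (median 1.89). Each of the 3 had at most 31 UMIs in AAA_14 and 0 in Sham, so their ratios rest on few counts. With 0 in Sham a gene reaches the minimum of 10 UMIs only through AAA_14, and its ratio is then always past 2-fold. The count and the median of this list are therefore not a result about its genes. Of the Fc receptor and transport genes 10 of 12 had enough UMIs, and 4 were higher and 0 lower (median 0.78). These 4 were Fcgr1, Fcgr3, Fcgr4 and Fcer1g, which are genes of phagocytes. Free transcript of phagocytes, of which there were 1063 in AAA_14 and 10 in Sham, moves with them, and its part was not tested. The B cell receptors Fcmr, for IgM, and Fcer2a, for IgE, were at -0.14 and -0.86.

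In AAA_7 over Sham the receptor genes had 3 of 12 higher, secretion 3 of 13, survival 0 of 2 and Fc receptors 3 of 8, with 0 lower in each, beside 17.7% of all genes higher. In AAA_14 over AAA_7, where 12% of all genes were higher and 6.41% lower, the receptor genes and Fc receptors had 0 higher and 0 lower, secretion 1 higher and 2 lower, and survival 0 higher and 1 lower.

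Over the 18 pairs of class and library with at least 50 cells, which share libraries and depth, the genes whose log2 CPM was most like that of each of 4 members were ranked by Pearson's r as a description. For Ighd these were Fcmr (0.97), Pax5 (0.96), Fcer2a (0.95), Gm30239 (0.95) and Klhl14 (0.95). For Jchain they were Oosp1 (0.94), Derl3 (0.93), 4933404K13Rik (0.93), Cacna1h (0.91) and Tmed6 (0.91). Of the 18 points 1 is a plasma cell point, that of AAA_14, so the values for Jchain, Ighm and Igkc lean on it. Fcmr, Pax5 and Fcer2a are genes of B cells, and Derl3 acts in protein export from the endoplasmic reticulum. For Ighm they were Mzb1 (0.93), Eaf2 (0.91), Syvn1 (0.89), Tmed6 (0.88) and Gm30211 (0.88), and for Igkc Tmed6 (0.93), Eaf2 (0.90), Oosp1 (0.90), Mzb1 (0.89) and Gm34215 (0.89). Pax5, Mzb1 and Derl3 are among the markers that defined the classes.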

How the data were processed

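The authors deposited unnormalised UMI counts per gene and barcode for 3 libraries, and per the file headers they came from Cell Ranger 6.1.2. Seurat and the build mm10 are also named, per the submitters' processing notes. For the annotation, the aligner settings and doublet removal: not given in the sources used here. No per-sample column was without a sample.

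The 10 genes, the gene lists and the markers were chosen with earlier results of these data known. Barcodes with at least 200 genes and at most 10% mitochondrial UMIs were kept. A cell joined the class with the most of 8 markers detected, with at least 3 and a lead of 2 over other classes. Plasma cells needed 5, more than their B cell markers and a lead of 2 over the rest. This scoring rule was set after the counts were seen. The counts of a class were added up within each library and scaled to its total (CPM). Log2 ratios had 0.5 counts added and needed 10 UMIs in both libraries together, with exact conditional binomial intervals. CPM had exact Poisson and shares exact Clopper-Pearson intervals, and the floor was 3 counts. UMIs are molecules, and intervals cover counting error only. A 2-fold difference was called without a test. The leading heavy-chain gene with at least 2 UMIs gave the isotype. No doublet caller was used in the reported values.

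Named were the 10 genes, Ighe, Iglc2, Iglc3, members of the lists (some are not reported here), the 5 genes most like Ighm, Ighd, Jchain and Igkc, and B cell genes ranked by log2 ratio with at least 30 UMIs, 50 CPM and a CPM of 0.1 times that in whichever other class had most. Genes of plasma cell isotypes and Ighv genes were named after their values were seen. Alternatives were mitochondrial limits of 5%, 20% and none, at least 500 genes, 1 more marker, clusters made without immunoglobulin genes, removal of the highest Scrublet scores, 5 counts added, size factors, other isotype minimums, thinning to 1000 UMIs and subtraction of the T cell level. Ratios and intervals were tested on simulated data. Python 3.11.15, scipy 1.17.1, scanpy 1.11.5 and leidenalg 0.10.2 were used. Positions and coding sequences came from GENCODE vM21 (GRCm38), the version in hand, which need not be the authors' annotation.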

Additional observations from a re-analysis of the deposited data

How the results depend on the processing

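No paired analysis was possible because each group was 1 library, and no library could be left out. In the alternatives run no log2 ratio past 2-fold changed its direction. Of the smaller ones, AAA_14 over Sham turned for Igha (-2.45 with the T cell level subtracted), Ighd (0.17 with a mitochondrial limit of 20% or none) and Igkc (0.05 with 1 more marker), and AAA_14 over AAA_7 for Iglc1 (-0.77 with a limit of 5%). The share of plasma cells in AAA_14 (11.0%) was 4.89% with a mitochondrial limit of 20%, 4.44% with none, 73.0% with 5% and 13.0% in clusters made without immunoglobulin genes. In Sham it was 100% (2 of 2 cells) with 5%, where no Sham B cell was left, so ratios against Sham could not be had there. The switched share of B cells in AAA_14 (7.43%) was 3.63% with a limit of 20%, 3.80% with none, 20.8% with 5%, 3.63% after thinning to 1000 UMIs and 3.52% where 80% of heavy-chain UMIs outside Ighd had to be of one isotype. The cause of these shifts beyond the change in cells kept was not tested. With the T cell level subtracted, the number of genes 2-fold higher in AAA_14 than in AAA_7 was 3 and not 6, and 1 and not 0 was lower in AAA_14 over Sham and in AAA_7 over Sham. With a limit of 5%, 1 was lower in AAA_14 over AAA_7. Of 340 log2 ratios recomputed 75 moved beyond their counting interval, as did 11 of 86 shares and 10 of 42 T cell levels, and of 68 counts of genes the 4 given here. The other counts changed by at most 1 gene. Removing the highest Scrublet scores took 224, 83 and 12 cells of AAA_14, AAA_7 and Sham, among them 0 plasma cells. Shares in Sham plasma cells rest on 4 cells.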

Other observations

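Among genes that passed a filter on low counts and on the level in other classes, genes of cell division led the differences of B cells between AAA_14 and Sham. Ube2c, a ubiquitin-conjugating enzyme of mitosis, had 2073 UMIs in B cells of AAA_14 against 2 in Sham (log2 ratio 6.73), and Birc5 (survivin) had 1205 against 2 (5.95). Pclaf, a partner of the replication clamp, had 3619 against 15 (4.90), and Ccna2 (cyclin A2) 782 against 3 (4.84). Also among the 10 with the largest ratio, of genes with at least 30 UMIs, 50 CPM and 0.1 of the level in the highest other class, were Cdca8 (5.17), Kif11 (5.14), Cdc20 (5.07), Uhrf1 (4.77), Ccnb1 (4.71) and Racgap1 (4.64). Lower in AAA_14 were Lef1 (-3.41), at 4.85 CPM (47 UMIs) in AAA_14 against 51.6 CPM (64) in Sham, and the histone gene Hist1h4c (-2.70). Gpr183 (-2.49), a receptor that guides B cells outside germinal centres, was also lower, at 110 CPM (1065 UMIs) against 618 CPM (766). AAA_14 over AAA_7 was led by Rgs13 (3.53), Cenpf (3.47) and Mef2b (3.02), of which Rgs13 and Mef2b were also higher in the switched B cells.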
